A study of Mus musculus with 40 samples.

Results

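The integrin subunits and the laminin chains were examined in whole livers of mice lacking Nampt in hepatocytes (HNKO) and of WT mice. Members were all genes whose symbol is that of an integrin alpha chain, an integrin beta chain 1 to 8 or a laminin alpha, beta or gamma chain, and that had at least 10 counts in at least 3 of the 38 libraries used. Of 55487 genes in the table, 37 had such a symbol and 36 were members. These were 7 leukocyte integrins (Itgal, Itgam, Itgax, Itgae, Itga4, Itgb2 and Itgb7), 18 other integrin subunits and 11 laminin chains. Itgad, the one left out, had at most 5 counts in any library used. All 36 members passed the filter on low counts.

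Female C57BL/6JBomTac mice, 9 weeks old, received a purified control diet (PD), and livers were taken at day 3, 6, 12 or 21 of feeding. HNKO mice carried floxed Nampt alleles together with a Cre transgene under the albumin promoter, which is active in hepatocytes and their albumin-expressing precursors, so other cells that come from these precursors can carry the recombined allele. WT mice were littermates with the floxed alleles and without Cre, so both genotypes shared the floxed locus, the strain, the sex and the diet. The labels give the days as an age and the study as days of feeding. There were 5 WT and 5 HNKO libraries at day 3, 4 and 5 at day 6, 5 and 6 at day 12, and 5 and 3 at day 21, each from 1 liver.

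Integrins are cell surface receptors made of 1 alpha and 1 beta chain, which tie a cell to the extracellular matrix or to other cells and signal through the focal adhesion. Laminins are trimers of an alpha, a beta and a gamma chain, are the sheet-forming glycoproteins of basement membranes, and are ligands of several integrins. In normal liver a full basement membrane surrounds the bile ducts and the larger vessels, whereas hepatocytes face the sinusoid without one. Leukocytes carry integrins of their own, chiefly pairs with the beta chains Itgb2 and Itgb7.

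Nampt, the targeted gene, was lower in HNKO at every day, with fitted log2 fold changes of -0.93 ± 0.23, -0.90 ± 0.24, -0.82 ± 0.22 and -0.69 ± 0.27 (SE) at days 3, 6, 12 and 21. It passed the edgeR test at the first 3 of these days and missed it at day 21 (adjusted p = 0.161). Whole liver also holds cells in which Nampt was not deleted. Total counts ranged from 16151037 to 64181492 (median 26466478.5). CPM below are counts scaled to the normalised library total. The summed level of 12 hepatocyte markers, all with at least 10 counts in every library, was 95611 to 156557 CPM in WT and 67660 to 134979 CPM in HNKO. The 2 HNKO libraries of day 21 described as failing quality control (17 and 18) were not used. In library 17, Itga11, Itgae, Itgam, Itgax, Itgb4, Itgb6 and Itgb7 had 0 counts. In the whole tissue, fewer cells of a type and less RNA per cell cannot be told apart. Libraries are named by the number in their labels.

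Members differed widely in level per exonic length (RPKM, computed here from scaled counts and the summed exon length). Among the integrins of WT livers the beta 1 chain Itgb1, partner of most matrix-binding alpha chains, was highest at 53.8 ± 4.75 RPKM (SD, n = 19), followed by Itgb5 at 23.6 ± 2.27 RPKM. Itga9 (7.14 ± 0.686 RPKM), Itga1 (6.20 ± 0.593 RPKM), Itgav (5.74 ± 0.755 RPKM) and Itga5 (4.79 ± 1.26 RPKM) came next, and the libraries of each of these overlapped those of its neighbour in the order. The remaining non-leukocyte integrins lay between 0.0324 RPKM (Itgb6) and 2.83 RPKM (Itga8). Of the laminin chains, Lamc1, the gamma chain of most trimers, was highest in WT at 4.23 ± 0.542 RPKM, Lamb1, Lama1 and Lamb2 lay between 1.96 and 2.19 RPKM with overlapping libraries, and Lama3 was at 0.325 ± 0.0610 RPKM. Of the leukocyte integrins, Itgb2 was highest at 4.04 ± 0.801 RPKM and Itgam lowest at 0.122 ± 0.0628 RPKM. These are means over the 4 days together.

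**Figure D1:**
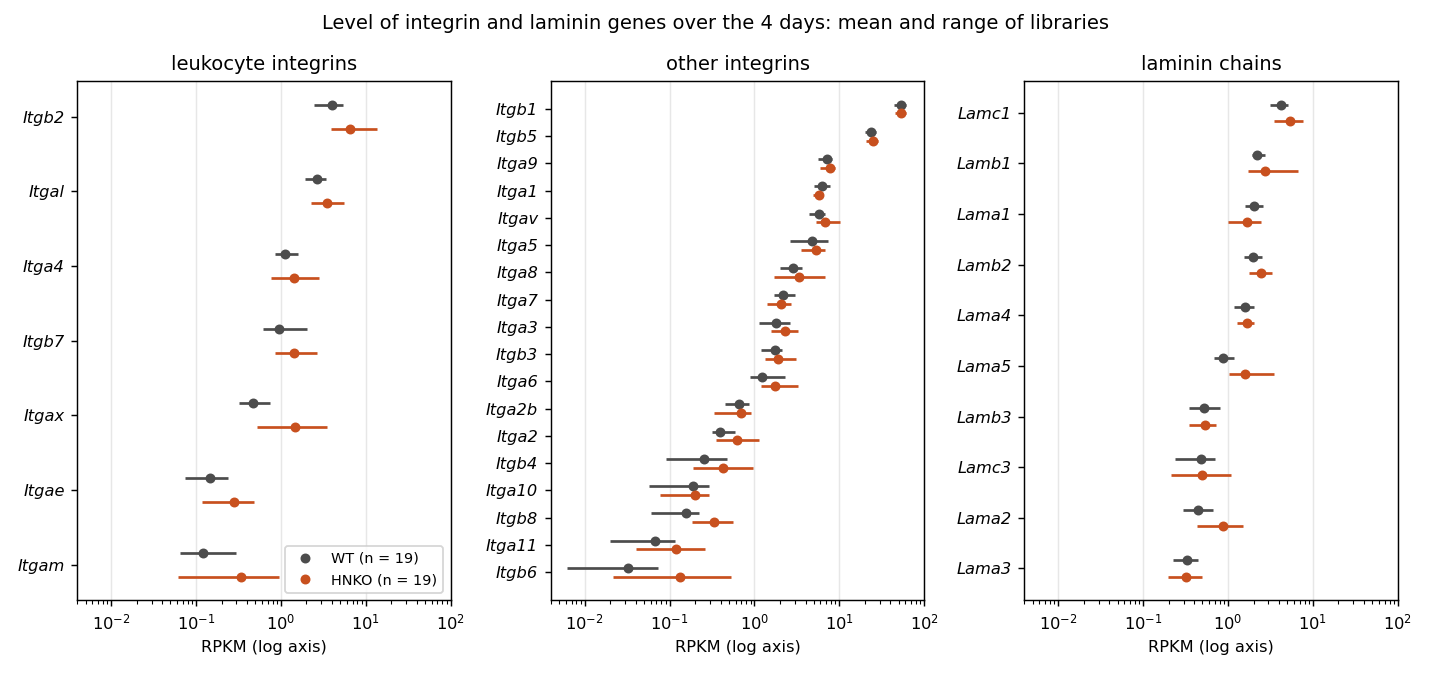
Level of the members in RPKM (horizontal log axis), in panels for leukocyte integrins, other integrins and laminin chains. Points are means and lines the range over the 19 WT (grey) and 19 HNKO (orange) libraries of all days. Itgb1 lay at 53.8 RPKM in WT and 53.9 in HNKO, whereas Itgax rose from 0.476 to 1.47 RPKM.

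The genotypes were compared day by day using quasi-likelihood tests in edgeR, p-values were adjusted by Benjamini-Hochberg over all 20297 tested genes, and a gene was called at an adjusted p under 0.05. At day 3, 4 of 36 members were higher in HNKO (11.1%), against 2.95% of all tested genes, and none was lower, against 1.71%. At day 6, 14 members were higher (38.9%), against 8.42%, and none was lower, against 4.37%. At day 12, 8 members were higher (22.2%), against 4.56%, and none was lower, against 3.27%. At day 21, 3 members were higher (8.33%), against 2.21%, and none was lower, against 0.916%. In the mean of the 4 days, each day weighted equally, 22 members were higher (61.1%), against 19.2%, and 1 was lower (2.78%), against 17.3%. At an unadjusted p under 0.05, 10, 20, 13 and 11 members were higher and 1, 0, 3 and 0 lower at days 3, 6, 12 and 21. DESeq2 called 5, 16, 11 and 5 members higher at days 3, 6, 12 and 21 and 1 lower, Itga1 at day 12. The shares of all tested genes at the unadjusted threshold and with DESeq2 are not given here.

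The median log2 fold change of the 36 members was 0.25, 0.45, 0.25 and 0.33 at days 3, 6, 12 and 21, whereas that of all tested genes was 0.01, -0.01, 0.00 and -0.01. By group, the 7 leukocyte integrins had medians of 0.25, 1.01, 0.80 and 0.67, and all 7 had a fold change above 0 at each day. The 18 other integrins had medians of 0.31, 0.31, 0.10 and 0.22, and the 11 laminin chains 0.19, 0.34, 0.26 and 0.29. The leukocyte integrins thus had the highest median at days 6, 12 and 21, and the groups of genes were not tested against each other.

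**Figure D2:**
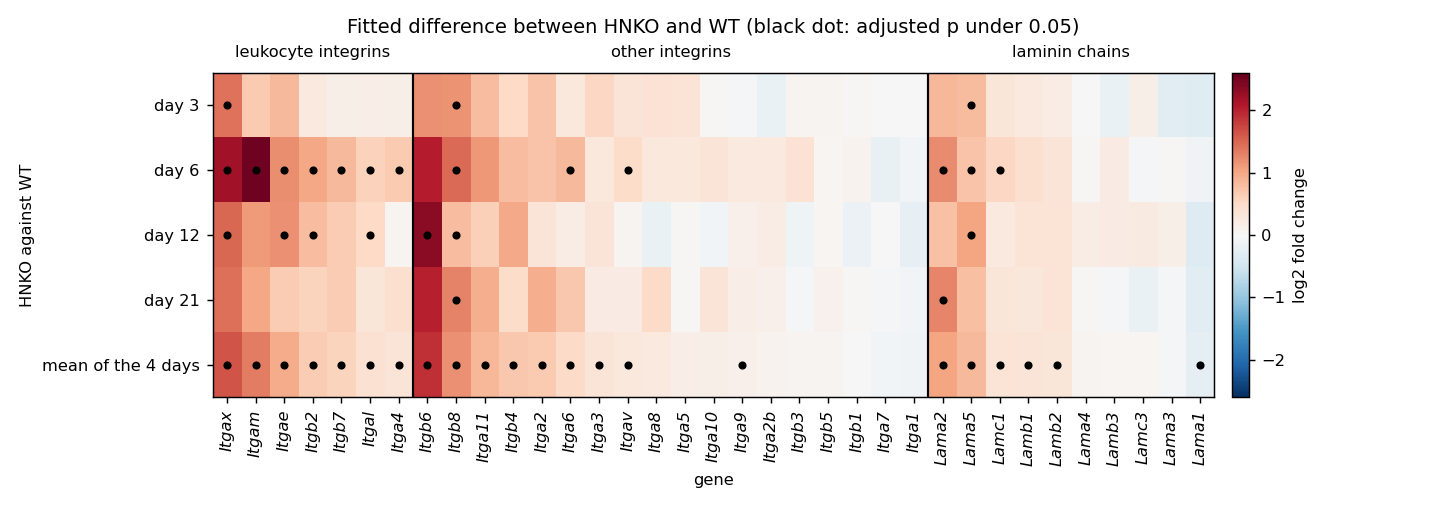
Fitted log2 fold change, HNKO against WT, for the members (horizontal) at days 3, 6, 12 and 21 and in the mean of the 4 days (vertical). Red is higher and blue lower in HNKO, and a black dot marks an adjusted p under 0.05. All 7 leukocyte integrins carry a dot at day 6, and Itgb8 carries one at every day.

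Of the members, 2 were called at all 4 days, Itgb8 among them, Itgax and Lama5 were called at 3, and Itgae, Itgal, Itgb2 and Lama2 at 2. A further 7 members (Itga4, Itga6, Itgam, Itgav, Itgb6, Itgb7 and Lamc1) were called at 1 day, and 21 at none. Of all 20297 tested genes, 0.823% were called higher at 4 days, 1.05% at 3, 2.42% at 2 and 6.84% at 1. The counts depended on single libraries. At day 3 the count fell from 4 to 2 without HNKO library 2 or 23 or WT library 5 or 25, and rose to 7 without HNKO library 22. At day 6 it fell from 14 to 6 without HNKO library 29 and to 9 without WT library 10. At day 21 it fell from 3 to 0 without HNKO library 37 and to 1 without WT library 19, and rose to 6 without HNKO library 38. The share of all tested genes called in each of these fits is not given here. Whether calls in general moved alike can therefore not be read from these counts.

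The leukocyte integrins were led by Itgax (ENSMUSG00000030789, GRCm38 chr7:128129547-128150657, plus strand), which encodes CD11c, the alpha chain that pairs with Itgb2 on dendritic cells and on some macrophages. At day 3 Itgax was at 2.20, 2.29, 2.59, 2.73 and 3.60 CPM in WT and at 2.49, 3.11, 5.33, 11.4 and 13.6 CPM in HNKO. At day 6 it was at 1.94, 2.05, 2.08 and 2.36 CPM in WT and at 3.96, 5.88, 10.3, 10.6 and 16.8 CPM in HNKO. The WT livers lay close together, whereas the HNKO livers spread over several-fold, with 3 of 5 above every WT liver at day 3 and all 5 at day 6. At day 12 the WT values were 1.54, 1.62, 1.73, 1.80 and 2.25 CPM, and the 6 HNKO livers had a lowest of 2.85, a median of 4.67 and a highest of 8.47 CPM. At day 21 Itgax was at 1.92, 2.29, 2.45, 2.57 and 3.45 CPM in WT and at 3.00, 6.56 and 10.8 CPM in HNKO. The groups did not overlap at day 12, while at day 21 1 of the 3 HNKO livers lay within the WT range. The fitted log2 fold changes were 1.41 ± 0.39, 2.18 ± 0.43, 1.5 ± 0.38 and 1.43 ± 0.43 (SE), and edgeR called days 3, 6 and 12 (adjusted p = 0.0307, 0.00102 and 0.0155) and not day 21 (0.0546). The day 3 call was lost without HNKO library 2 or 23 or WT library 5, 24 or 25 (adjusted p 0.0590 to 0.142, log2 fold change 1.06 to 1.42). With all 40 libraries the day 3 and day 12 calls were lost (adjusted p = 0.144 and 0.0882), and with the groups of the day alone that of day 3 (0.0954). Day 21 was called by DESeq2 (adjusted p = 0.0276) and with the groups of the day alone (0.0477).

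The Itgax promoter is shown because this gene had the highest fold change of the members called at 2 or more days, at day 6. The 247 bases before its annotated transcript (GRCm38.p6, chr7:128129300-128129546, plus strand, upstream of the first exon, from RefSeq) hold 1 AP-1 motif, TGANTCA on either strand, given in capitals.
Itgax: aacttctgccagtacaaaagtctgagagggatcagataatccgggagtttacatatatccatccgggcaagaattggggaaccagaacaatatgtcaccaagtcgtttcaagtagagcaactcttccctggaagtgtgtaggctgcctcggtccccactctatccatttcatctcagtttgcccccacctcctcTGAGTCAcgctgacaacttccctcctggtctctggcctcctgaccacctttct
Of all 32851 windows of 250 bases upstream of a start in the table, 6.75% hold this motif, and of the 23 members with a window Itgax was the only one. This is a match of letters and not evidence of a bound factor.

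Itgb2 (ENSMUSG00000000290, GRCm38 chr10:77530252-77565708, plus strand) encodes CD18, the beta chain shared by Itgal, Itgam and Itgax. At day 3 Itgb2 was at 13.3, 13.7, 14.6, 14.6 and 14.9 CPM in WT and at 11.8, 14.3, 17.7, 18.9 and 21.7 CPM in HNKO. The day 6 values were 12.0, 13.9, 14.9 and 16.4 CPM in WT and 18.9, 24, 28.2, 30.7 and 42.0 CPM in HNKO. Day 3 overlapped and day 6 did not. WT livers of day 12 had 7.47, 9.81, 10.2, 10.9 and 12.3 CPM and the HNKO livers a lowest of 12.1, a median of 16.6 and a highest of 26.8 CPM. At day 21 the values were 7.81, 10.03, 12.4, 12.5 and 12.7 CPM in WT and 14.1, 14.7 and 20.8 CPM in HNKO. At day 12 the lowest HNKO liver lay just under the highest WT liver, and at day 21 the groups did not overlap. The fold changes were 0.25 ± 0.19, 1.01 ± 0.21, 0.80 ± 0.19 and 0.57 ± 0.22 on the log2 scale (SE), called by edgeR at days 6 and 12 (adjusted p = 0.00148 and 0.00973) and not at days 3 and 21 (0.496 and 0.147). Both calls held without any 1 library of the day, and both were lost when the 2 libraries that failed quality control were added (adjusted p = 0.112 and 0.207).

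Itgal (ENSMUSG00000030830, GRCm38 chr7:127296260-127335138, plus strand), the alpha chain of LFA-1 on lymphocytes and other leukocytes, showed smaller differences. At day 6 Itgal was at 16.2, 16.2, 16.9 and 20.7 CPM in WT and at 20.9, 21.9, 24, 28.9 and 36.4 CPM in HNKO. At day 12 it was at 12.7, 16, 16.1, 16.7 and 17 CPM in WT, and the HNKO livers had a lowest of 15, a median of 21.8 and a highest of 31.8 CPM. The groups were apart at day 6 by a narrow margin, and at day 12 all but 1 HNKO liver lay above every WT liver. At day 3 the WT values were 14.6, 15.6, 17.3, 18.8 and 21.6 CPM and the HNKO values 16.4, 19.4, 19.7, 21.2 and 22.6 CPM. At day 21 they were 15.9, 19.1, 20.8, 21.7 and 22.3 CPM in WT and 21.9, 22.9 and 30.2 CPM in HNKO. At both of these days the groups overlapped. The log2 fold changes were 0.18 ± 0.15, 0.60 ± 0.16, 0.51 ± 0.15 and 0.32 ± 0.17 (SE), called by edgeR at days 6 and 12 (adjusted p = 0.0140 and 0.0308). The day 6 call was lost without HNKO library 29 or WT library 8 (adjusted p = 0.0775 and 0.0507), and the day 12 call without HNKO library 11 or 12 or WT library 33 (0.0543 to 0.104). With the groups of the day alone both calls were lost (adjusted p = 0.0511 and 0.0793). With all 40 libraries day 12 was lost (adjusted p = 0.0610) and day 21 was called (0.0317).

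Itgae (ENSMUSG00000005947, GRCm38 chr11:73090583-73147446, plus strand) encodes CD103, the alpha chain that pairs with Itgb7 on intraepithelial T cells and some dendritic cells, and was counted with 7 to 96 counts a library. At day 6 Itgae was at 0.341, 0.513, 0.737 and 0.885 CPM in WT and at 0.872, 1.09, 1.31, 1.64 and 2.24 CPM in HNKO. At day 12 it was at 0.413, 0.457, 0.487, 0.574 and 0.735 CPM in WT, against a lowest of 0.901, a median of 1.22 and a highest of 1.56 CPM in HNKO. The groups did not overlap at day 12, and at day 6 1 HNKO liver lay within the WT range. At day 3 the values were 0.364, 0.493, 0.649, 0.681 and 0.952 CPM in WT and 0.532, 0.860, 1.0, 1.42 and 1.74 CPM in HNKO. At day 21 they were 0.473, 0.897, 0.974, 1.02 and 1.10 CPM in WT and 0.883, 1.29 and 2.07 CPM in HNKO, so both of these days overlapped. The log2 fold changes were 0.84 ± 0.31, 1.2 ± 0.33, 1.18 ± 0.30 and 0.67 ± 0.33 (SE), called by edgeR at days 6 and 12 (adjusted p = 0.0150 and 0.0151). The day 6 call was lost without HNKO library 29 or WT library 10 or 27 (adjusted p 0.0530 to 0.0811) and with the groups of the day alone (0.0628). With all 40 libraries both calls were lost (adjusted p = 0.115 and 0.104). Itgae overlaps Haspin on the opposite strand, and since the strand setting of the counting is not given in the sources used here, reads of such pairs cannot be told apart.

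Itgam, which encodes CD11b of neutrophils, monocytes and macrophages, had a log2 fold change of 2.53 ± 0.51 (SE) at day 6 (edgeR adjusted p = 0.00108) and 0.68 ± 0.45, 1.12 ± 0.44 and 1.0 ± 0.52 at days 3, 12 and 21, none of these called. Its mean rose from 0.530 ± 0.204 CPM in WT to 3.05 ± 1.26 CPM in HNKO at day 6 (SD, n = 4 and 5), with no overlap. Itga4, whose pairs with Itgb1 and Itgb7 bind VCAM-1 and MAdCAM-1, and Itgb7 were also called at day 6 alone (0.69 ± 0.21 and 0.84 ± 0.23 log2, adjusted p = 0.0290 and 0.0147). Without HNKO library 29 neither call held (adjusted p = 0.155 and 0.0751), and that of Itga4 was also lost without WT library 8, 10 or 28 (adjusted p from 0.0643) and with the groups of the day alone. With all 40 libraries both were lost. Itga4 overlaps Cerkl on the opposite strand. In the mean of the 4 days, in which 19.2% of all tested genes were called higher, all 7 leukocyte integrins were, from 0.33 ± 0.10 for Itga4 (adjusted p = 0.0123) to 1.63 ± 0.20 for Itgax (adjusted p = 2.01e-07).

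The leukocyte markers of the same libraries were as follows. Of 12 such genes (among them Ptprc, Cd68 and Csf1r), 11 passed the filter, and Ly6g had a median of 0 counts. Of the 11, edgeR called 0, 7, 4 and 1 higher in HNKO at days 3, 6, 12 and 21, against 2.95%, 8.42%, 4.56% and 2.21% of all tested genes, and none lower, and at day 3 0 had an unadjusted p under 0.05. Their summed level at day 6 was 374 to 489 CPM in WT and 488 to 753 CPM in HNKO, and at day 3 401 to 499.9 CPM in WT and 395 to 497 CPM in HNKO. The part of leukocyte number in the integrin differences was not tested.

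Among the other integrins, Itgb8 (ENSMUSG00000025321, GRCm38 chr12:119158022-119238802, minus strand) stood out by being called at each day. It encodes the beta 8 chain, whose only known alpha partner is Itgav and whose dimer releases active TGF-beta from its latent complex. At day 3 Itgb8 was at 1.59, 1.59, 1.76, 1.94 and 2.26 CPM in WT and at 2.02, 3.71, 4.29, 4.55 and 5.82 CPM in HNKO. At day 6 WT had 0.667, 1.13, 1.14 and 1.46 CPM and HNKO 2.7, 3.03, 3.09, 3.23 and 3.24 CPM. At day 3 1 HNKO liver lay within the WT range, and at day 6 the HNKO livers lay close together and well above WT. At day 12 the WT values were 1.31, 2.01, 2.01, 2.44 and 2.46 CPM, and the HNKO livers had a lowest of 2.36, a median of 2.76 and a highest of 6.21 CPM. At day 21 they were 1.37, 1.49, 1.63, 2.01 and 2.26 CPM in WT and 3.22, 3.97 and 5.67 CPM in HNKO. Day 12 overlapped, with 4 of 6 HNKO livers above every WT liver, and day 21 did not. The log2 fold changes were 1.16 ± 0.26, 1.47 ± 0.29, 0.80 ± 0.24 and 1.30 ± 0.28 (SE), all called by edgeR (adjusted p = 0.00874, 0.00102, 0.0381 and 0.0107). The day 12 call was lost without HNKO library 32 or 35 or WT library 15, 16 or 34 (adjusted p 0.0625 to 0.114), and the day 21 call without HNKO library 37 (adjusted p = 0.257). The day 12 call was also lost with no filter on low counts (adjusted p = 0.0557), with all 40 libraries (0.0716) and with the groups of the day alone (0.116).

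Itgb6, the other epithelial beta chain that activates TGF-beta with Itgav, had high but uncertain fold changes, since it had 1 to 29 counts a library in WT. Its log2 fold changes were 1.2 ± 0.67, 2.04 ± 0.75, 2.36 ± 0.60 and 2.02 ± 0.67 (SE), and edgeR called day 12 (adjusted p = 0.0154). That call was lost without HNKO library 35, which had 3.75 CPM (log2 fold change 1.78, adjusted p = 0.0540). Itgav itself rose at day 6 (0.48 ± 0.14, adjusted p = 0.0185), a call lost without HNKO library 29 or WT library 8 or 10 (adjusted p 0.0586 to 0.103) and with the groups of the day alone. Itga6, the laminin-binding alpha chain that pairs with Itgb1 or with the hemidesmosome chain Itgb4, rose at day 6 as well (0.84 ± 0.23, adjusted p = 0.0143), and this was lost without HNKO library 29 or WT library 10 (adjusted p = 0.0893 and 0.0669).

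In the mean of the 4 days, 9 of the 18 other integrins were called higher by edgeR and none lower, against 19.2% of all tested genes higher and 17.3% lower. Itgb6 had the largest change (1.90 ± 0.34 log2, SE, adjusted p = 3.88e-05) and Itgb8 the smallest adjusted p (1.18 ± 0.13, 4.49e-08). The collagen-binding chains Itga11 (0.87 ± 0.21) and Itga2 (0.69 ± 0.15), the laminin-binding chains Itgb4 (0.70 ± 0.18), Itga6 (0.50 ± 0.11) and Itga3 (0.34 ± 0.09), and Itgav (0.28 ± 0.07) and Itga9 (0.13 ± 0.05) followed. Those not called were Itga8 (0.25 ± 0.12), Itga5 (0.17 ± 0.10), Itga10 (0.16 ± 0.15), Itga2b (0.10 ± 0.08), Itgb3 (0.08 ± 0.07), Itgb5 (0.07 ± 0.05), Itgb1 (-0.00 ± 0.04), Itga7 (-0.07 ± 0.08) and Itga1 (-0.09 ± 0.04). The 2 most abundant integrin chains, Itgb1 and Itgb5, thus had fold changes close to 0 with small errors, while the called ones were lower in level. In this edgeR test Itga1 was called lower without HNKO library 6 or WT library 16 or 26 (adjusted p 0.0248 to 0.0471). Itga8 was called higher without HNKO library 22 or 38 (adjusted p 0.0363 to 0.0418). Itga7 overlaps Mettl7b on the opposite strand, whose counts are far higher, and Itga9, Itgav and Itga1 also overlap other counted genes.

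Of the laminin chains, Lama5 (ENSMUSG00000015647, GRCm38 chr2:180176373-180225859, minus strand), the alpha 5 chain of laminin-511 and laminin-521 in epithelial and vascular basement membranes, did not overlap between the groups at any day. How many of all tested genes were apart at every day was not counted. At day 3 Lama5 was at 7.87, 8.56, 9.09, 9.60 and 10.4 CPM in WT and at 12.3, 13.5, 13.7, 18.4 and 22.7 CPM in HNKO. At day 6 it was at 8.72, 8.72, 9.14 and 11.2 CPM in WT and at 11.8, 13.3, 13.5, 17.5 and 22.5 CPM in HNKO. The margin between the groups was small at day 6, where 1 WT liver came near the lowest HNKO liver. WT livers of day 12 had 7.92, 9.42, 10.3, 11.7 and 11.9 CPM and the HNKO livers a lowest of 14.3, a median of 17.5 and a highest of 39.9 CPM. At day 21 the values were 10.1, 10.3, 11, 11 and 13.5 CPM in WT and 14, 16.1 and 27.5 CPM in HNKO. The high value at day 12 was that of library 35, far above the other 5. The log2 fold changes were 0.83 ± 0.22, 0.74 ± 0.24, 1.02 ± 0.21 and 0.78 ± 0.25 (SE), called by edgeR at days 3, 6 and 12 (adjusted p = 0.0270, 0.0345 and 0.00453) and not at day 21 (0.0684). Without library 35 the day 12 change was 0.75 and still called. The day 3 call was lost without HNKO library 2 or 23 or WT library 5 or 25 (adjusted p 0.0641 to 0.114), and the day 6 call without HNKO library 7 or 29 or WT library 8, 27 or 28 (adjusted p 0.0701 to 0.149). With all 40 libraries both were lost (adjusted p = 0.138 and 0.170), and DESeq2 called day 21 (adjusted p = 0.0448).

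The Lama5 promoter is shown because the groups did not overlap for this gene at any day, and for its base composition beside that of Itgax. The 250 bases before its transcript (GRCm38.p6, chr2:180225860-180226109, minus strand, upstream of the first exon, from RefSeq) were 72.4% G or C, against 50% in the window of Itgax, and hold 4 GC boxes (GGGCGG on either strand), given in capitals.
Lama5: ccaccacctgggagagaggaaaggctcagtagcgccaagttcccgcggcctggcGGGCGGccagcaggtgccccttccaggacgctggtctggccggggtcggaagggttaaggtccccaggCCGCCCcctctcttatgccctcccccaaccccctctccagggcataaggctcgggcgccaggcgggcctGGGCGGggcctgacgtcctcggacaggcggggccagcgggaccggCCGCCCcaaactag
A GC box was in 8 of the 23 members' windows and in 32.7% of all windows. Of the other motifs searched on both strands, TEAD (GGAATG) was in 3 of the 23 and in 12.6% of all windows, the HNF1 motif (GTTAAT) in 1 and in 6.43%, the TATA box (TATAAA) in 0 and in 12.4%, and PU.1 (AGAGGAAGT) in 2 and in 0.798%.

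Lama2 (ENSMUSG00000019899, GRCm38 chr10:26980036-27619758, minus strand), the alpha 2 chain of laminin-211, is best known from muscle and mesenchymal cells. At day 3 Lama2 was at 5.05, 7.64, 8.92, 9.29 and 10.9 CPM in WT and at 7.29, 10.2, 10.6, 23.1 and 24.6 CPM in HNKO. At day 6 it was at 4.77, 4.98, 5.75 and 7.04 CPM in WT and at 8.86, 9.28, 11.7, 15.8 and 20.7 CPM in HNKO. At day 3 the HNKO livers fell apart, with 2 far above WT and 3 within the WT range, and at day 6 the groups did not overlap. At day 12 the WT values were 6.71, 6.78, 7.08, 7.35 and 9.15 CPM, and the HNKO livers had a lowest of 7.12, a median of 12.3 and a highest of 17.7 CPM. At day 21 they were 5.89, 6.14, 6.51, 8.02 and 8.04 CPM in WT and 10.9, 15.8 and 23.2 CPM in HNKO. Day 12 overlapped and day 21 did not. The log2 fold changes were 0.86 ± 0.28, 1.24 ± 0.31, 0.77 ± 0.27 and 1.27 ± 0.31 (SE), called by edgeR at days 6 and 21 (adjusted p = 0.00738 and 0.0216) and not at days 3 and 12 (0.0685 and 0.0726). The day 21 call was lost without HNKO library 37 (adjusted p = 0.426) and without WT library 19 or 41 (adjusted p from 0.0510). DESeq2 called days 3 and 12 as well (adjusted p = 0.0421 and 0.0465).

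**Figure D3:**
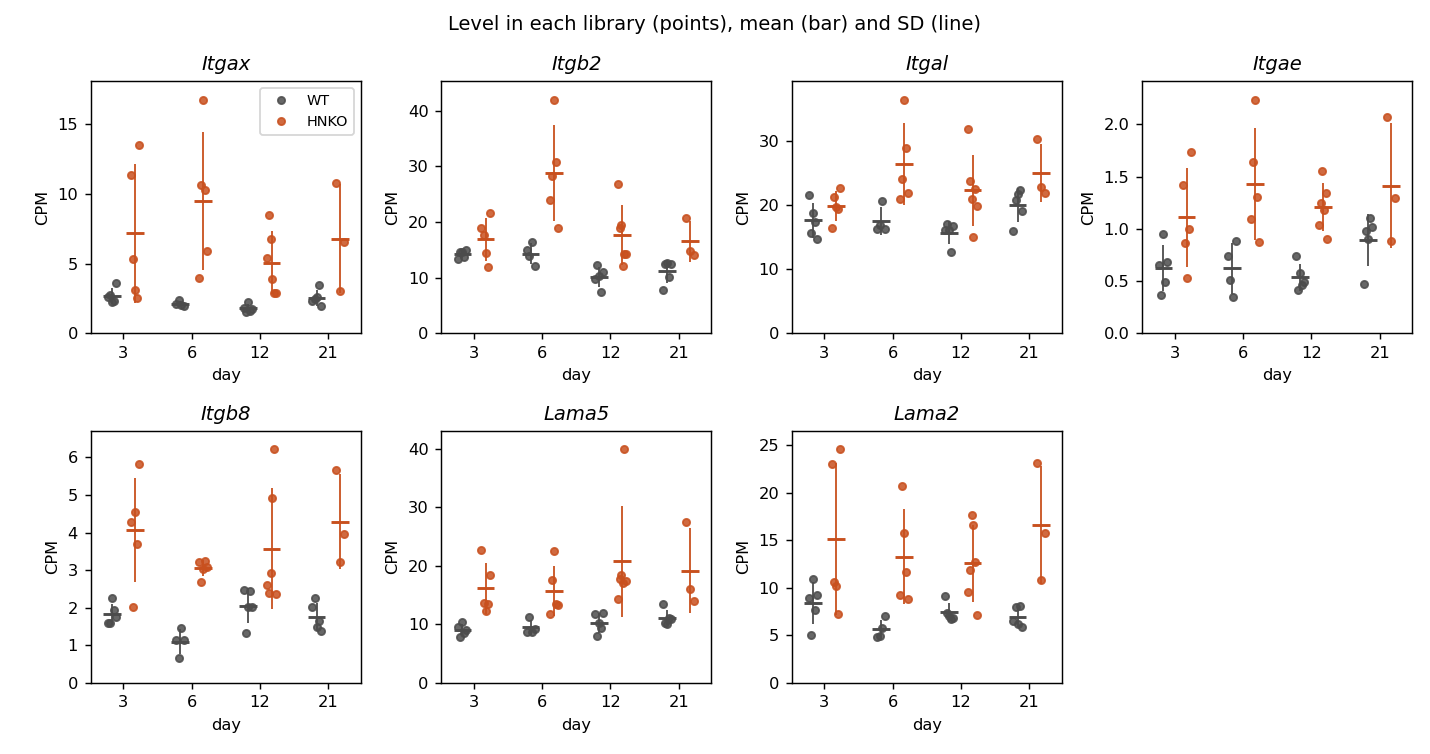
Level in CPM (vertical axis, from 0) of members called at 2 or more days, in each library by day (horizontal axis). Points are libraries, WT in grey and HNKO in orange, bars are means and lines 1 SD on either side. For Itgax at day 6 HNKO livers spread more than WT livers (3.96 to 16.8 CPM against 1.94 to 2.36). This does not hold in every panel and day, since HNKO livers had the narrower range for Itgb8 at day 6 and Itgal at day 3. Lama5 does not overlap at any day.

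Of the remaining laminin chains, Lamc1 rose at day 6 (0.54 ± 0.15, edgeR adjusted p = 0.0169), which was lost without HNKO library 29 or WT library 10 or 28 (adjusted p 0.0528 to 0.0963) and with the groups of the day alone. In the mean of the 4 days, Lama2 (1.03 ± 0.15), Lama5 (0.84 ± 0.11), Lamc1 (0.36 ± 0.07), Lamb1 (0.33 ± 0.12) and Lamb2 (0.31 ± 0.08) were called higher, beside 19.2% of all tested genes. Lama1, the alpha chain of laminin-111, was the only member called lower in this test with all 38 libraries (-0.26 ± 0.08, edgeR adjusted p = 0.0113). It was called in the mean test alone, with values of -0.32, -0.10, -0.33 and -0.29 at the 4 days. Without HNKO library 37 the calls of Lama1 and Lamb1 were lost (adjusted p = 0.0564 and 0.0714). Lama4, the alpha chain of vascular laminin-411, was at 0.06 ± 0.07, Lamc3 at 0.05 ± 0.18, Lamb3 at 0.05 ± 0.10 and Lama3 at -0.04 ± 0.10, none of them called. Lamb3 overlaps Hsd11b1, an abundant liver gene on the opposite strand, so its own level is uncertain. Of the alpha chains that share the partners Lamb1 and Lamc1, Lama2 and Lama5 were thus called higher and Lama1 lower, and Lama4 was not called. These differences between chains were not tested.

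Of 30 known pairs and trimers of members, the chain of lowest RNA level in WT was called higher in the mean of the 4 days in 20, was called lower in 1 (Lama1 in laminin-111) and was not called in 9. The 20 are 66.7%, near the 61.1% of all members called higher in the same test, so this is no result about the lowest chains. The chain was the same in HNKO in all 30. Pairs that share a chain are not independent, and the 30 have 27 different lowest chains. For Itgav with Itgb8, the lowest level was that of Itgb8, at 0.155 RPKM in WT and 0.333 RPKM in HNKO, against 5.74 and 6.82 RPKM for Itgav. For Itgav with Itgb6 it was that of Itgb6, at 0.0324 and 0.131 RPKM. For Itgax with Itgb2 it was Itgax, at 0.476 and 1.47 RPKM against 4.04 and 6.62 RPKM for Itgb2. In laminin-511 and laminin-521 Lama5 was lowest, at 0.880 and 1.58 RPKM. Protein and assembly were not measured here.

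The HNKO livers that were high were often the same ones for several members. At day 3 library 23 had the highest value of the day's HNKO livers in 6 of the 8 members called at 2 or more days and library 22 the lowest in 4. At day 6 library 29 was highest in 6. At day 21 library 37 was highest in all 8. At day 12 no library led in more than 3, and library 35 had the highest Lama5 and Itgb8 and the lowest Itgax of the 6 livers. Library numbers fell into 2 runs, 1 to 21 and 22 to 41, which the labels do not call batches, and all 3 HNKO livers of day 21 were in the second. Within runs, each of the 8 members was higher in HNKO in all 7 comparisons that could be made, with the smallest difference for Itgal (0.05 log2 CPM) and the largest for Itgax (2.30 log2 CPM). The 8 members were chosen by their calls in these same libraries, so a shared direction is largely set by that choice. It is no test of the runs.

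Days of feeding were compared within each genotype. In WT, edgeR called 0 of 36 members for a change over the days, against 5.84% of all tested genes, with 4 members at an unadjusted p under 0.05 and 0 called by DESeq2. In HNKO it called 3 (Itgam, Itgb2 and Itgb3, adjusted p = 0.0376, 0.0104 and 0.0200), which is 8.33% of the members against 7.9% of all tested genes, a share near the background. Mean Itgb2 was 16.9 ± 3.86, 28.8 ± 8.64, 17.6 ± 5.32 and 16.5 ± 3.70 CPM (SD) at days 3, 6, 12 and 21, and mean Itgam 1.28 ± 0.600, 3.05 ± 1.26, 1.27 ± 0.881 and 0.965 ± 0.608 CPM. Itgb3, the beta chain of the platelet and vitronectin receptors, went from 10.6 ± 0.659 to 14 ± 2.6, 10.2 ± 1.37 and 9.38 ± 0.363 CPM. Without HNKO library 29 none of the 3 was called, and without HNKO library 23 or 31 the count was 5. The genotype effect itself was not shown to differ between days. The interaction test called 0 members and 0% of all tested genes, with 0 members and 966 genes at an unadjusted p under 0.05, and DESeq2 called 0 members.

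Genes that work with integrins and laminins were taken from 3 lists, whose counts stand beside 2.95%, 8.42%, 4.56% and 2.21% of all tested genes higher at days 3, 6, 12 and 21 and 19.2% in the mean test, and 1.71%, 4.37%, 3.27%, 0.916% and 17.3% lower. Of 18 partners of laminin in basement membranes, 4, 9, 3 and 5 were called higher at days 3, 6, 12 and 21 and 0 lower at each. Bcam, a laminin alpha 5 receptor, was called at all 4 days (0.83 ± 0.22, 0.91 ± 0.23, 0.81 ± 0.21 and 0.92 ± 0.24 log2). The type IV collagen chains Col4a1 and Col4a2 were called at days 3, 6 and 21 and reached 1.17 ± 0.24 and 1.04 ± 0.22 at day 6. Of 26 integrin ligands other than laminins, 24 were tested, and 6, 15, 7 and 6 were higher and 0 lower. Spp1 (osteopontin, which is also a cholangiocyte marker), Thbs1 and Tnc were each called at all 4 days, with log2 fold changes at day 6 of 3.22 ± 0.40, 2.98 ± 0.44 and 3.16 ± 0.50. In the mean test 13 partners and 15 ligands were higher, and 1 partner and 0 ligands lower.

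Of 30 genes of the focal adhesion and of integrin activation, 3, 8, 4 and 1 were higher and 0, 0, 1 and 0 lower at the 4 days, and in the mean test 13 were higher and 2 lower. The 1 gene higher at day 21 is 3.33% of the list, near the share of all genes. Flna, which crosslinks actin and binds integrin tails, was called at all 4 days (0.74 ± 0.22, 1.15 ± 0.24, 0.83 ± 0.21 and 1.12 ± 0.25). Fermt1, the kindlin of epithelia, was called at days 3, 6 and 12 (1.42 ± 0.34, 1.13 ± 0.36 and 1.47 ± 0.31). The kinase Src was called at days 3 and 6 (0.97 ± 0.25 and 0.98 ± 0.27). Median log2 fold changes of the 30 genes lay between 0.08 and 0.16 by day, whereas those of the ligands lay between 0.32 and 0.71 and of the basement membrane partners between 0.21 and 0.57.

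Cell type markers were counted in the same libraries. Of all tested genes 2.95%, 8.42%, 4.56% and 2.21% were higher and 1.71%, 4.37%, 3.27% and 0.916% lower at days 3, 6, 12 and 21, and 19.2% were higher and 17.3% lower in the mean of the 4 days. Of 12 cholangiocyte markers 11 were tested, none had a median of 0 counts, and 9, 9, 8 and 6 were higher in HNKO at days 3, 6, 12 and 21, with none lower. Their summed level was 49.0 to 71.9 CPM in WT and 136 to 802 CPM in HNKO, without overlap. Of 12 stellate cell and fibroblast markers, all with at least 10 counts in every library, 5, 4, 2 and 3 were higher, and 2 (Colec11 and Reln) were lower at day 12. Their sum was 628 to 779 CPM in WT and 576 to 1529 CPM in HNKO. Of 12 endothelial markers 0, 0, 1 and 0 were higher and 0, 1, 1 and 0 lower (Kdr), and the sum was 628 to 785 CPM in WT and 638 to 779 CPM in HNKO. The 6 mesothelial markers gave 0 calls at each day by edgeR, with 0, 2, 0 and 0 at an unadjusted p under 0.05. Of 8 platelet and megakaryocyte markers 3 were tested, 2 of the 8 (Gp1bb among them) had a median of 0 counts, and Pf4 was called higher at days 6 and 12. Of 12 hepatocyte markers 0, 3, 0 and 0 were lower at the 4 days and 0 higher. In the mean test 7 of the 12 hepatocyte markers were lower, Alb, Ttr and Apoa2 among them, and 0 were higher, with a median log2 fold change of -0.25. In the same test 10 of 11 cholangiocyte and 7 of 11 leukocyte markers were higher and 0 lower, 8 stellate cell and fibroblast markers were higher and 2 lower, 1 endothelial marker was higher and 1 lower, 1 platelet marker was higher and 1 lower, and 0 mesothelial markers were called by edgeR, with 1 at an unadjusted p under 0.05. The part of cell type makeup in the changes of Lama5, Lama2 and Itgb8 was not tested.

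**Figure D4:**
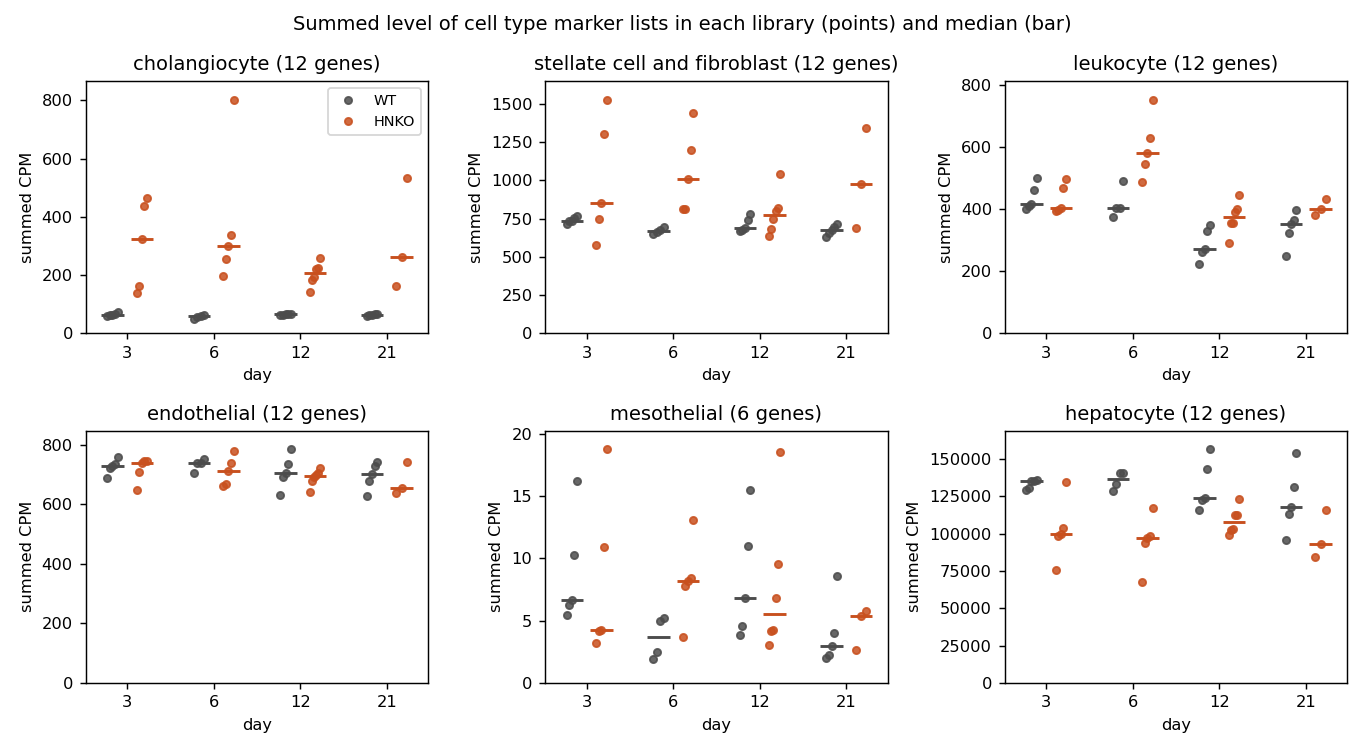
Summed CPM (vertical axes, from 0) of 6 cell type marker lists in each library by day (horizontal axes), WT in grey and HNKO in orange, with bars at the median. The cholangiocyte sum of every HNKO liver (136 CPM or more) lies above that of every WT liver (71.9 CPM or less), while the endothelial sums overlap.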

How the data were processed

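Total RNA of whole liver was depleted of rRNA and sequenced as 51-bp paired-end reads from TruSeq stranded libraries. Per the study's methods and the submitters' processing notes, the authors aligned reads to GRCm38 (mm10) with STAR 2.7.2b and counted fragments with both ends aligned on GENCODE M22 genes with featureCounts 1.6.4, and they deposited raw counts per gene without normalization in 1 table. The strand setting is not given in the sources used here.

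Genes were named by identifier (55394 of 55487). Counts of 38 libraries were filtered (edgeR filterByExpr, minimum count 10), scaled by TMM and tested with edgeR 4.0.16 in R 4.3.3 (quasi-likelihood, legacy computation, 1 mean for each of the 8 groups), with Benjamini-Hochberg adjustment over 20297 genes. CPM uses TMM-scaled totals. RPKM divides these by the summed exon length in GENCODE M21. In simulated counts, 200 genes were given 1 fixed size of change, larger than the fitted change of most members. Of these genes 90.5%, 85%, 93% and 83% were recovered at days 3, 6, 12 and 21. The simulated spread followed the trend over genes and not each gene's own, and smaller changes were not simulated.

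Members and gene lists were chosen with earlier results of these data known. Values in each library are given for members called at 2 or more days, and up to 3 genes are named for a pathway list. Some results that enter the counts are not reported here. Depth limits the precision of the genes with few counts (Itgb6, Itgae, Itgam). DESeq2 1.42.0, other scalings, filters and sample sets, and leaving out each library were tried. Correlations used 100000 permutations within groups.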

Additional observations from a re-analysis of the deposited data

Results flagged for a closer look

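Among the members called at 2 or more days whose values are given, the highest or lowest library of a group stood far from the rest in 6 of 49 groups of 4 to 6 libraries. The cutoff is one that about 1 in 20 groups of independent, normally distributed values would pass. These groups share livers and their genes vary together, so an excess over that share cannot be read from the count. In HNKO livers of day 12, library 35 had 39.9 CPM of Lama5 (next 18.4 CPM). Among WT livers, Itgal was at 20.7 CPM in library 27 at day 6 (next 16.9 CPM) and at 12.7 CPM in library 33 at day 12 (next 16 CPM). Lama2 was at 9.15 CPM in WT library 14 at day 12 (next 7.35 CPM). Lama5 was at 11.2 CPM in WT library 10 at day 6 (next 9.14 CPM) and at 13.5 CPM in WT library 19 at day 21 (next 11 CPM). The 3 HNKO livers of day 21 were too few for this check.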

How the results depend on the processing

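For members called by day or in the mean, no fold change that was checked changed direction under any alternative that gave a value. The median over all tested genes lay close to 0 and did change sign. At day 12 it went from 0.002 to -0.009 with a minimum of 10 counts in every library. Counts of members called were 4, 14, 8 and 3 at days 3, 6, 12 and 21. For the alternatives below, the shares of all tested genes called are not given here. With all 40 libraries, which adds the 2 that failed quality control, they were 2 at day 3, 9 at day 6 and 2 at day 12, and 1 member was called over the days within HNKO in place of 3. At day 21 DESeq2 called 5 and the fit of that day's groups alone 5. With the run of library numbers as a covariate, 1 member was called over the days within WT in place of 0. Leaving out 1 library gave 2 to 7 members at day 3, 6 to 16 at day 6, 7 to 11 at day 12, 0 to 6 at day 21, 21 to 24 in the mean of the 4 days, 0 over the days within WT, 0 to 5 within HNKO and 0 for the interaction. No member called by day or in the mean lost its call with DESeq2 size factors, robust estimation or the newer edgeR computation, or, where it was tested, with a minimum of 10 counts in every library. That minimum removed Itga10, Itga11, Itgae, Itgam and Itgb6, and called Itga9 and Itgb3 at day 6 and Itgb7 at day 12 in addition. The newer edgeR computation also called Itgb4 at day 12 and Itgb7 over the days within HNKO. No paired analysis was possible because each library has its own number and no mouse is in 2 groups. With 3 to 6 livers a group, a difference that was not called may be one that this spread and depth cannot show.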

Other observations

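Livers of 1 group differed in the levels of cell type markers as well as of integrins and laminins. Deviations from the group mean in log2 CPM were compared over the 38 libraries between the 8 members called at 2 or more days and the mean of 6 marker lists, 48 relations in all, with p-values from 100000 permutations within groups. Of these, 20 had an adjusted p under 0.05 for both coefficients. Lama2 followed the stellate cell and fibroblast list (r = 0.86, permutation p = 1e-05, adjusted 0.00024, rho = 0.82, permutation p = 1e-05, the smallest these permutations can give). Without the 2 libraries farthest from the median it was 0.81, within HNKO 0.91, within WT 0.57, and 0.86 in both runs of library numbers. Itgb2 followed the leukocyte list (r = 0.82, rho = 0.80, permutation p = 1e-05 for both, 0.76 without the 2 farthest libraries, 0.94 within HNKO and 0.55 within WT).

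Lama5 had its highest r with the cholangiocyte list (r = 0.76, permutation p = 0.00021, adjusted 0.00123, rho = 0.69, permutation p = 0.00022). Without the 2 farthest libraries, 29 and 35, r was 0.63, within HNKO 0.84, and within WT 0.25. Itgb8, called at all 4 days, had its highest r with the cholangiocyte list (0.45, permutation p = 0.0249, adjusted 0.0519, rho = 0.38), and passed only by rho, with the stellate cell and fibroblast list (rho = 0.43, permutation p = 0.0165, adjusted 0.0377, r = 0.35).

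Itgax and Itgae, both leukocyte integrins, had a higher r with the stellate cell and fibroblast list than with the leukocyte list. For Itgae these were 0.64 (permutation p = 8e-05, adjusted 0.00064, rho = 0.69, 0.68 without libraries 22 and 23, 0.32 within WT) and 0.40 (permutation p = 0.0207, adjusted 0.0452, rho = 0.38). For Itgax they were 0.75 (permutation p = 0.00044, adjusted 0.00192, rho = 0.53, 0.66 without libraries 22 and 23) and 0.61 (permutation p = 0.00032, adjusted 0.00154, rho = 0.62), and within WT the first was -0.12. By rho the order of these 2 lists was the reverse for Itgax, and its highest rho was with the cholangiocyte list (0.65). The difference between the 2 lists was not tested for Itgae or Itgax. Itgal, also a leukocyte integrin, had r = 0.70 with the leukocyte list and 0.24 with the stellate cell and fibroblast list. With the hepatocyte list r was below 0 for all 8 members. It was -0.78 for Itgax (permutation p = 7e-05, adjusted 0.00064, rho = -0.65), -0.70 for Itgae (permutation p = 5e-05, adjusted 0.0006, rho = -0.67), -0.68 for Lama2 (permutation p = 0.00054, adjusted 0.00216, rho = -0.70) and -0.62 for Lama5 (permutation p = 0.00023, adjusted 0.00123, rho = -0.70). All values are shares of 1 library total, and what sets these relations was not tested.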
